A study of Mus musculus with 6 samples.

Results

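The genes described here are known for transcripts that respond to stretch and wall stress in the heart, and most of them encode proteins of the sarcomere and its Z-disc. They were taken from a list of names, with no threshold on a measured value, though with earlier results of these data known. They are *Ankrd1*, *Ankrd2*, *Ankrd23*, *Csrp3*, *Fhl1*, *Fhl2*, *Xirp1*, *Xirp2*, *Acta1* and *Uchl1*. Of these 10 genes, 9 were measured, by 11 of the 34945 probe sets that name a single gene, among 18193 genes in all. *Ankrd1* and *Fhl1* had 2 probe sets each and the others 1, while *Xirp2* had none that names it alone and was not analysed here. Whole ventricles of 3 CTRL and 3 OE mice, all male and of mixed 129SvEv/C57Bl6/J background, were hybridized to Affymetrix whole-genome mouse arrays. CTRL mice carried *Myh6-MerCreMer*, a tamoxifen-dependent Cre recombinase driven by a promoter of cardiomyocytes. OE mice carried the same driver and *CAG-S-COUP-TFII*, an allele from which Cre switches on the nuclear receptor COUP-TFII. Both groups therefore shared the Cre driver and the drug, and differed by the overexpression allele. Tamoxifen was given to every mouse at 40 mg per kg per day for 3 days from the age of 2 months, and ventricles were taken 16 days after the first dose, at 2.5 months by the labels and 2 months by the array methods. The overexpression is confined by design to cardiomyocytes, whereas RNA came from the whole ventricle, so that fewer cells of a type and less RNA per cell cannot be told apart.

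Cardiomyocytes carry much of their passive tension on titin, a giant spring that runs from the Z-disc to the M-band. Proteins docked on titin and on the Z-disc can leave for the nucleus or change partners when the sarcomere is pulled, and many of their genes are induced when the ventricle is overloaded or dilates. The ankyrin repeat proteins of *Ankrd1* (CARP), *Ankrd2* (ARPP) and *Ankrd23* (DARP) bind the N2A segment of titin. The LIM domain proteins of *Csrp3* (MLP), *Fhl1* and *Fhl2* sit at the Z-disc and on the titin spring. The Xin repeat proteins of *Xirp1* and *Xirp2* bind actin at the intercalated disc. *Acta1* encodes skeletal α-actin, which the fetal heart expresses and the stressed adult heart expresses again, and *Uchl1* encodes a ubiquitin carboxy-terminal hydrolase that is abundant in neurons and has been described in stressed heart muscle. The comparison asks how the transcripts of these load sensors differ when COUP-TFII is raised in adult cardiomyocytes.

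The promoters of the members on which the results turn are shown first, as the 250 bases that precede the annotated start in RefSeq (GRCm38.p6), written 5′ to 3′ on the strand of the gene. *Ankrd1* and *Uchl1* are shown because they rose, *Fhl2* because it fell, and *Acta1* because it differed most among CTRL arrays. Capitals mark matches on either strand to the M-CAT element (CATTCC, bound by TEAD factors), the CArG box (bound by SRF) and the MEF2 site. They also mark the TATA box (TATAAA), the GATA site (AGATAA) and the nuclear receptor motif AGGTCA. The last was searched as a single copy, and repeats of it were not searched for.
Ankrd1 promoter: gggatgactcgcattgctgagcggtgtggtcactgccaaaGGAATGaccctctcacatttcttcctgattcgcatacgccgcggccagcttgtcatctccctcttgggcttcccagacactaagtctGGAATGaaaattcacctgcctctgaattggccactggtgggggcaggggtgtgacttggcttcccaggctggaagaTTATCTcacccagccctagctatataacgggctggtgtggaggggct
Uchl1 promoter: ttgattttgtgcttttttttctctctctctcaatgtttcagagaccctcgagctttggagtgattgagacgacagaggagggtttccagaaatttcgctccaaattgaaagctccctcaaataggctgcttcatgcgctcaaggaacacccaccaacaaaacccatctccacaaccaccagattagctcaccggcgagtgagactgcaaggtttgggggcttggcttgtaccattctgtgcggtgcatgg
Fhl2 promoter: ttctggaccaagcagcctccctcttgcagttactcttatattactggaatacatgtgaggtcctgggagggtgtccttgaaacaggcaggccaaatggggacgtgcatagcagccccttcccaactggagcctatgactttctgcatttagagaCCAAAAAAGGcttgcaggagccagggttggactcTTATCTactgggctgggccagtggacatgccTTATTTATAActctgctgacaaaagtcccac
Acta1 promoter: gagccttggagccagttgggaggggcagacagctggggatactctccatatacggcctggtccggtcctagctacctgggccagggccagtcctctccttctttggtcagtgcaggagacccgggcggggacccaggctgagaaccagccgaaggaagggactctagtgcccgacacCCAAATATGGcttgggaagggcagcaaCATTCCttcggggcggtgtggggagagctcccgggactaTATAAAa

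The *Ankrd1* sequence (chr19:36119845-36120094, minus strand) held M-CAT matches that begin 210 and 123 bases before the start and a GATA match at 47 bases. The *Acta1* sequence (chr8:123894776-123895025, minus strand) held a CArG box at 73 bases, an M-CAT element at 46 bases and a TATA match at 7 bases. Over all promoters the commonest place of a TATA match was 29 bases before the annotated start. The *Fhl2* sequence (chr1:43196762-43197011, minus strand, 1 of 2 entries of this gene) held a CArG box at 96 bases, a GATA match at 62 bases and a MEF2 site at 31 bases, inside which lies a TATA match. The other *Fhl2* entry (chr1:43163962-43164211), not shown, held a CArG box at 31 bases and no other of the motifs. The *Uchl1* sequence (chr5:66675871-66676120, plus strand) held none of the 6 motifs. Over the 13 promoter entries of 9 of the 10 genes (*Xirp1* had no entry), CArG boxes were found for *Fhl1*, *Fhl2* and *Acta1*, and 1.47% of 32851 RefSeq promoters of this length hold such a box. M-CAT elements were found for *Ankrd1*, *Ankrd23* and *Acta1* (12.6% of all promoters) and MEF2 sites for *Fhl2* and *Xirp2* (2.92%). TATA boxes were found for *Ankrd2*, *Fhl1*, *Fhl2* and *Acta1* (12.4%) and GATA sites for *Ankrd1*, *Ankrd23* and *Fhl2* (9.99%). The motif AGGTCA was found for *Xirp2* alone (14% of all promoters), as a single copy. A match describes the letters in the window and says nothing about occupancy.

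The deposited values are log2 values relative to the median of each probe set over all 6 arrays, so every value below is a difference between arrays and not a level, and the genes cannot be ranked by abundance. For the same reason the arrays cannot show whether a marker of the ventricle is present or absent. *Nr2f2*, which encodes COUP-TFII, was first checked: its probe set of largest difference was at −1.99, −1.60 and −1.65 in CTRL and 1.72, 1.60 and 1.91 in OE (log2 change 3.49, SE 0.13, adjusted p = 2.57e-05 from limma). Its other 5 probe sets had changes between −0.34 and −0.13. In the whole comparison 2709 genes were called higher in OE (14.9%) and 2152 lower (11.8%), at an adjusted p under 0.05 from limma over 18193 genes. With arrays centred on the 42 ribosomal protein genes, whose median change was 0.21, these counts became 1377 and 8757. Arrays of the same group were 0.194 to 0.233 apart, as the root mean square difference over genes, and those of different groups 0.375 to 0.427.

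Of the 9 measured genes, *Uchl1*, *Ankrd1* and *Csrp3* rose in OE, *Fhl2* fell, and 5 did not pass the test. This is 44.4% called, where 26.7% of all genes were called in either direction. The median log2 change of the 9 genes was 0.58, beside −0.03 for all genes. Since the genes were chosen with earlier results of these data known, these values describe them and are no independent support. In 5 of 9 the groups did not overlap (*Uchl1*, *Ankrd1*, *Csrp3*, *Fhl2* and *Xirp1*), as they did not in 45.6% of all genes. The genes did not share a direction: 7 of 9 changes were above 0, and those of *Fhl2* and *Ankrd23* were below.

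**Figure D1:**
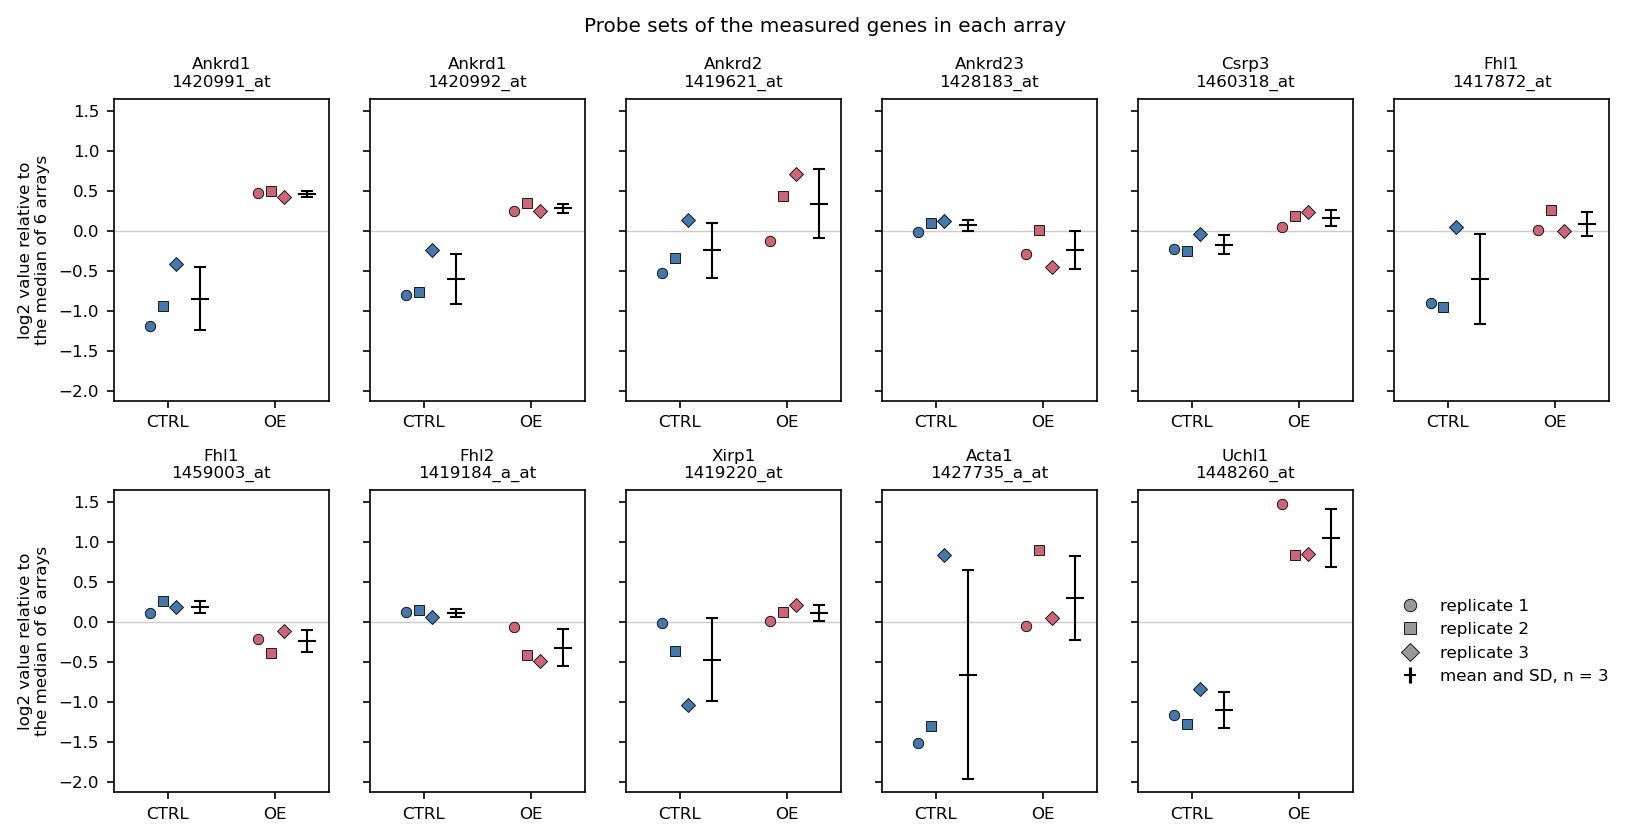
Log2 value of each of the 11 probe sets in each array, relative to the median of the 6 arrays (vertical axis), for 3 CTRL (blue) and 3 OE (red) arrays, with marker shapes for replicate numbers and bars for the mean and SD. The *Uchl1* and *Ankrd1* groups stand apart, the *Acta1* array CTRL 3 at 0.85 lies among the OE arrays, and the *Fhl1* probe sets differ in direction.

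Among the titin ankyrin repeat genes, *Ankrd1* rose and the other two were not called. *Ankrd1* (chr19:36111965-36119844) encodes the cardiac ankyrin repeat protein, which binds titin N2A and also acts as a transcriptional cofactor. The mean of its probe sets was −0.998, −0.858 and −0.333 in CTRL 1, 2 and 3 and 0.36, 0.42 and 0.34 in OE 1, 2 and 3. All OE arrays lay above all CTRL arrays, and the OE arrays differed from each other by far less than the CTRL arrays (SD 0.042 against 0.35, n = 3 each). The rise was 2.14-fold (log2 change 1.10, SE 0.16, adjusted p = 0.00262 from limma). The probe sets moved alike, by 1.32 for 1420991_at and 0.89 for 1420992_at on the log2 scale (adjusted p = 0.00179 and 0.00466 in the limma fit over probe sets, which called 13.9% of them higher). *Ankrd1* was called in all of 13 alternative fits, with log2 changes of 0.90 to 1.32.

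*Ankrd2* (chr19:42035917-42045111) encodes the relative that is best known from slow skeletal muscle and from stretched muscle. It was at −0.53, −0.34 and 0.13 in CTRL and −0.13, 0.44 and 0.71 in OE. CTRL 3 lay above OE 1, so the groups overlapped. Its log2 change was 0.59 (SE 0.23, 95% interval 0.05 to 1.13, adjusted p = 0.101 from limma). Without CTRL 3 it was called at 0.78 (adjusted p = 0.0461), and without OE 1 at 0.82 (adjusted p = 0.0346).

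*Ankrd23* (chr1:36530193-36536556) encodes the ankyrin repeat protein that was first described through its link to diabetes and that is known to accumulate on stretch. It was at −0.01, 0.10 and 0.12 in CTRL and −0.29, 0.01 and −0.46 in OE. OE 2 lay within the CTRL range and the other OE arrays below it. The log2 change was −0.31 (SE 0.12, adjusted p = 0.0889 from limma). It passed the test without OE 2 (log2 change −0.44, adjusted p = 0.0187) and with arrays centred on ribosomal protein genes (−0.51, adjusted p = 0.0131).

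The difference between these relatives was taken within each array. *Ankrd1* minus *Ankrd23* was −0.99, −0.96 and −0.45 in CTRL and 0.65, 0.40 and 0.79 in OE, a shift of 1.41 on the log2 scale. *Ankrd1* minus *Ankrd2* was −0.47, −0.51 and −0.46 in CTRL and 0.49, −0.02 and −0.37 in OE, a shift of 0.51 that became 0.28 without OE 1. In each pair every OE array lay above every CTRL array, with p = 0.1 by exact two-sided permutation, the smallest that 3 arrays against 3 allow, and 0.2 after adjustment over the 4 pairs compared. The *Ankrd1* to *Ankrd2* difference was nearly constant in CTRL (SD 0.027) and spread out in OE (SD 0.43).

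Among the LIM domain genes the calls went in opposite directions. *Csrp3* (chr7:48830398-48848051) encodes muscle LIM protein, a Z-disc protein whose loss causes dilated cardiomyopathy. It was at −0.23, −0.26 and −0.04 in CTRL and 0.04, 0.18 and 0.23 in OE. The groups did not overlap, although CTRL 3 and OE 1 lay close together. The rise was 1.26-fold (log2 change 0.33, SE 0.09, adjusted p = 0.0278 from limma). The call was lost without any array other than CTRL 3 or OE 1 (adjusted p from 0.0761 to 0.0836), with one-way analysis of variance (0.0844) and with ribosomal centring (log2 change 0.13, adjusted p = 0.238).

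*Fhl2* (chr1:43123071-43198343) encodes a LIM-only protein of the heart that ties metabolic enzymes to titin and restrains growth signalling. It was at 0.13, 0.16 and 0.06 in CTRL and −0.06, −0.41 and −0.49 in OE. All OE arrays lay below all CTRL arrays, OE 1 least so. *Fhl2* fell by 0.43 on the log2 scale (1.35-fold lower, SE 0.11, adjusted p = 0.0269 from limma). The call was lost without any array other than CTRL 3 or OE 1 (adjusted p from 0.0741 to 0.0802) and with one-way analysis of variance (0.109), and was kept with ribosomal centring (log2 change −0.64).

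*Fhl1* (chrX:56731209-56793346) encodes the relative that binds titin N2B as part of a stretch sensor. Its probe sets went in opposite directions, so their mean describes neither. Probe set 1417872_at was at −0.90, −0.96 and 0.05 in CTRL and 0.01, 0.25 and −0.01 in OE, with a log2 change of 0.69 (SE 0.25, adjusted p = 0.0775 in the limma fit over probe sets). CTRL 3 lay among the OE arrays, and without it the change was 1.02 (adjusted p = 0.0013). Probe set 1459003_at was at 0.11, 0.26 and 0.20 in CTRL and −0.21, −0.38 and −0.11 in OE, without overlap. It fell by 0.42 on the log2 scale (SE 0.10, adjusted p = 0.0164 in the same fit, where 10.4% of probe sets were called lower and 24.4% in either direction), and the call was lost without CTRL 2 (adjusted p = 0.0528) or OE 2 (0.0506). Averaged, *Fhl1* changed by 0.13 (SE 0.13, adjusted p = 0.488), and by −0.07 with ribosomal centring. Which transcripts of *Fhl1* each probe set detects is not known here. The within-array difference *Fhl1* minus *Fhl2*, which takes that mean, shifted by 0.57 with overlapping groups (p = 0.2 by exact two-sided permutation, adjusted 0.267 over the 4 pairs). With 1417872_at, the *Fhl1* probe set of largest variance, in its place the shift was 1.12 (p = 0.1 by the same exact test). The other probe set, 1459003_at, fell by 0.42, close to the fall of *Fhl2* by 0.43. Whether *Fhl1* and *Fhl2* differ in response thus depends on the probe set.

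*Xirp1* (chr9:120013755-120023598), the Xin repeat gene of the intercalated disc, was at −0.01, −0.36 and −1.04 in CTRL and 0.01, 0.12 and 0.21 in OE. All OE arrays lay above all CTRL arrays, but CTRL 1 and OE 1 differed by little and the CTRL arrays were far apart. The log2 change was 0.58 (SE 0.23, adjusted p = 0.0952 from limma), and became 0.81 without CTRL 1 (adjusted p = 0.0300) and 0.30 without CTRL 3 (adjusted p = 0.117). The low array here was CTRL 3, which for *Acta1*, *Ankrd1*, *Ankrd2*, *Ankrd23*, *Csrp3*, *Uchl1* and the mean of *Fhl1* was the highest CTRL array, towards OE in all of these but *Ankrd23*. The planned comparison with *Xirp2* could not be made, as *Xirp2* was not measured.

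*Acta1* (chr8:123891758-123894775), the skeletal α-actin of the fetal and stressed heart, was at −1.52, −1.29 and 0.85 in CTRL and −0.05, 0.91 and 0.05 in OE. CTRL 3 exceeded every array but OE 2. The log2 change was 0.96 with a 95% interval of −0.40 to 2.31 (SE 0.58, adjusted p = 0.256 from limma). The CTRL SD of 1.30 was exceeded by 0.0385% of all genes, whose median CTRL SD was 0.0971. Without CTRL 3 the log2 change was 1.71 (SE 0.27, adjusted p = 0.00574 from limma), so the call rests on that array, and without CTRL 1 it was 0.53 (adjusted p = 0.574). *Actc1*, the cardiac α-actin that fills the adult thin filament, changed by 0.06 (adjusted p = 0.505), and the within-array difference *Acta1* minus *Actc1* was −1.48, −1.23 and 0.85 in CTRL and −0.05, 0.84 and 0.04 in OE (shift 0.90, p = 0.4 by exact two-sided permutation, adjusted 0.4). That shift was 0.47 without CTRL 1, 0.59 without CTRL 2 and 1.63 without CTRL 3 (p = 0.9, 0.8 and 0.1 by the same exact test).

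*Uchl1* (chr5:66676121-66687234), the ubiquitin hydrolase, had the largest change of the 9 genes. It was at −1.16, −1.28 and −0.84 in CTRL and 1.48, 0.84 and 0.85 in OE. The nearest arrays of the groups, CTRL 3 and OE 2, were still far apart, and OE 1 was the highest. The rise was 4.44-fold (log2 change 2.15, SE 0.19, adjusted p = 0.000447 from limma) and stood at place 28 from the top among all genes. It was called in all of 13 alternative fits, with log2 changes of 1.94 to 2.28. Since *Uchl1* is abundant in neurons, the 13 measured neuron markers are given beside it: 1 was called higher (*Tubb3*, log2 change 0.34) and none lower, with array means of −0.0049 to 0.128 in CTRL and −0.0203 to −0.00893 in OE. That is 7.69% called, where 26.7% of all genes were called in either direction. *Ret*, the neuron marker of largest change, was at −0.43 and was not called (adjusted p = 0.155). Of 4 Schwann cell markers *S100b* was called higher (0.26) and *Sox10* lower (−0.27). Of these calls, *Tubb3* was lost without CTRL 2, OE 1 or OE 3 (adjusted p from 0.0627 to 0.0758), *Sox10* without CTRL 1, CTRL 3 or OE 1 (from 0.0506 to 0.0746) and *S100b* without any array (from 0.0667 to 0.123).

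**Figure D2:**
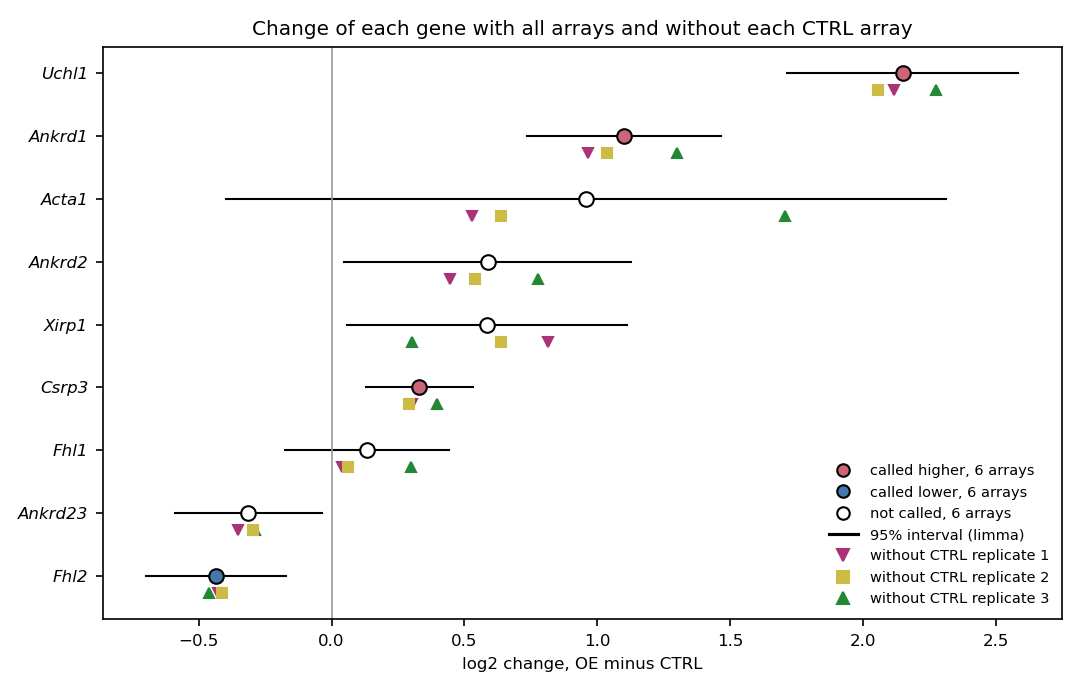
Log2 change from CTRL to OE of each gene (horizontal axis) with its 95% interval from limma over all 6 arrays (circles, filled where called), and the change when CTRL 1, 2 or 3 is left out (triangles and squares). *Acta1* moves from 0.96 to 1.71 without CTRL 3, *Xirp1* moves the other way to 0.30, and *Uchl1* and *Ankrd1* stay called.

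Several of these results therefore depended on CTRL 3, and others on other arrays, as given with each gene. Without CTRL 3, 6 of 9 genes were called higher (*Uchl1*, *Ankrd1*, *Csrp3*, *Ankrd2*, *Acta1* and the mean of *Fhl1*), where 13% of all genes were. *Fhl2* kept its lower call in that fit, with *Csrp3* at 0.40 and *Fhl1* at 0.30 on the log2 scale. Leaving out any other array gave 2 to 4 genes called higher. Since CTRL 3 lay towards OE in most of these genes, more higher calls without it follow in part from those values. CTRL 3 lay nearer to the OE mean than to the mean of the other CTRL arrays in 4 of 9 genes (*Ankrd2*, *Csrp3*, *Fhl1* and *Acta1*), and in 32.5% of all genes. The same was true of CTRL 1 in 1 of 9 (*Xirp1*, 28.1% of all genes) and of CTRL 2 in 0 of 9 (30.5%). *Acta1* in CTRL 3 was 2.25 above the mean of the other CTRL arrays, and *Xirp1* was 0.85 below it. Only 0.0275% of all genes, *Acta1* included, were at least as far away as *Acta1* in that array. Of the 15 measured skeletal muscle markers 3 were called lower (20%, beside 11.8% of all genes) and none higher. Their means were 0.02, −0.03 and 0.04 in CTRL 1, 2 and 3. The 2 markers of largest change went in opposite directions. *Tnni2* was called lower (log2 change −0.59), at 0.42, 0.22 and 0.24 in CTRL and −0.37, −0.23 and −0.28 in OE. In *Tnni2* CTRL 3 lay between the other CTRL arrays. *Mybpc2*, the fast myosin binding protein, was at −0.86, −0.72 and 0.07 in CTRL and was not called (log2 change 0.998, adjusted p = 0.0659). *Mybpc2* was called without CTRL 3 (1.28, adjusted p = 0.0291) or OE 1 (1.28, adjusted p = 0.045). Fibroblast markers averaged −0.56, −0.52 and −0.17 in CTRL 1, 2 and 3, so CTRL 3 was the nearest to OE there too. The part of these markers in the results was not tested.

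Genes of the same families shared some of these changes. Of 13 measured relatives 5 were called higher and none lower, with a median log2 change of 0.23. That is 38.5% higher, where 14.9% of all genes were called higher and 11.8% lower. *Csrp2*, the smooth muscle relative of *Csrp3*, rose 2.66-fold (log2 change 1.41, adjusted p = 0.000468), and *Csrp1* rose by 0.31 (adjusted p = 0.0157). Among the actins, *Acta2* of smooth muscle rose 2.12-fold (log2 change 1.08, adjusted p = 0.00291) and cytoplasmic *Actg1* by 0.48 (adjusted p = 0.0192). *Actg2* (0.42) and *Lmcd1* (0.23), a LIM protein of the Z-disc, did not pass the test. The call of *Csrp1* was lost without CTRL 1 (adjusted p = 0.0521) or OE 1 (0.0584), that of *Actg1* without CTRL 2, OE 1 or OE 2 (from 0.0532 to 0.0576), and *Actg2* was called without CTRL 3 (0.64, adjusted p = 0.0182). Of 9 smooth muscle markers 5 were called higher and 2 lower, with array means of −0.67 to −0.35 in CTRL and 0.39 to 0.53 in OE. Their median log2 change was 0.42, and single markers ran from −0.87 to 4.94, so the means lean on the largest rises.

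The partners of these proteins on titin and the Z-disc moved in either direction, with 8 of 30 called higher, 7 lower and a median log2 change of 0.12 (−0.08 with ribosomal centring). These shares were 26.7% higher and 23.3% lower, beside 14.9% and 11.8% of all genes. *Pdlim3* (1.77, adjusted p = 0.00829) and *Pdlim5* (1.32, or 0.76 when probe sets of the _x_at and _s_at kinds were left out, adjusted p = 0.000219 and 0.000658), which link α-actinin to signalling proteins, rose. *Tln1*, the talin of cell adhesions, rose by 0.90 (adjusted p = 0.00126). *Myot*, which crosslinks actin at the Z-disc, fell by 1.16 (adjusted p = 0.0253), a call that was lost without CTRL 1 (0.0734), CTRL 3 (0.0617) or OE 1 (0.0517). *Neb* (0.58, adjusted p = 0.119) and *Vcl*, the vinculin gene (0.32, adjusted p = 0.168), were not called, but *Neb* was without CTRL 3 (0.84, adjusted p = 0.0222) and *Vcl* without CTRL 2 (0.50, adjusted p = 0.0292).

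Other transcripts known to answer mechanical load were called higher in 10 of 18 and lower in 1, with a median log2 change of 1.09. These shares were 55.6% higher and 5.56% lower, beside 14.9% and 11.8% of all genes. *Il6*, the interleukin, was at −0.93, −0.80 and −0.82 in CTRL and 0.80, 1.31 and 1.10 in OE (log2 change 1.92, adjusted p = 0.000168). *Hmox1*, the haem oxygenase, rose by 1.35 (adjusted p = 0.00213). *Ccn1*, a matricellular protein, was at −0.49, −1.21 and −2.39 in CTRL and 0.66, 0.49 and 0.80 in OE (log2 change 2.01, adjusted p = 0.0107). *Ccn2* was at −0.59, −0.31 and −2.30 in CTRL and 0.31, 0.45 and 0.38 in OE (1.45, adjusted p = 0.0486), and lost its call without CTRL 1 or any OE array (adjusted p from 0.0615 to 0.112). Without CTRL 3 the change of *Ccn2* was 0.83 (adjusted p = 0.00264). In these last genes CTRL 3 was the lowest array, as for *Xirp1* and unlike *Acta1*. The mean of the 18 genes was −0.23, −0.56 and −0.83 in CTRL 1, 2 and 3, whereas that of the 9 sarcomere stress genes was −0.52, −0.50 and −0.11. *Atf3* (1.24, adjusted p = 0.236) and *Ccl2* (0.95, adjusted p = 0.0552) were not called. *Atf3* was called without CTRL 1 (2.18, adjusted p = 0.00622), and *Ccl2* without OE 1 (1.25, adjusted p = 0.0236) or OE 2 (0.55, adjusted p = 0.0328).

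**Figure D3:**
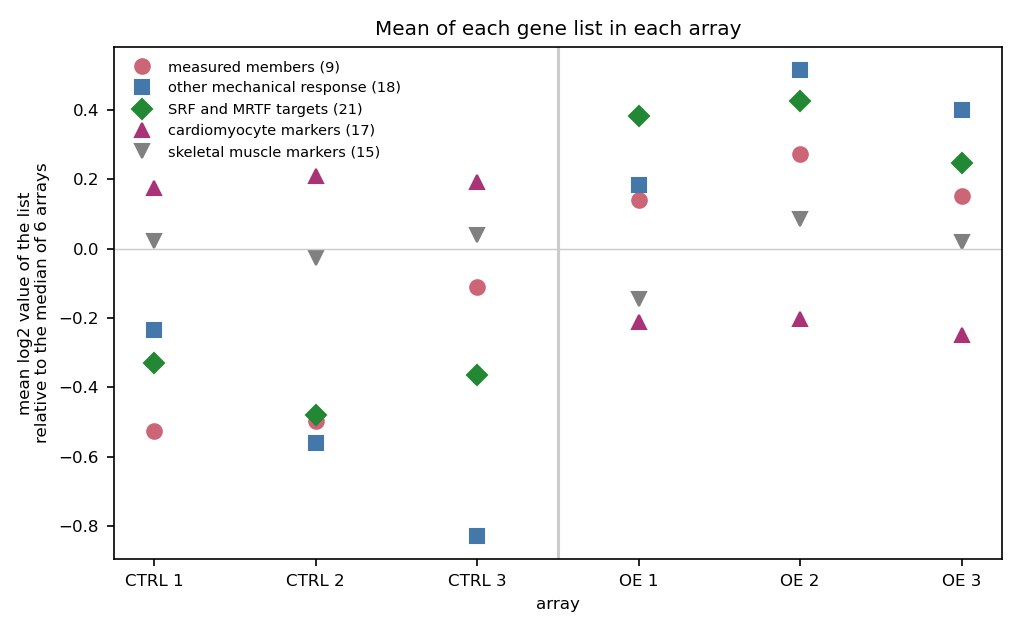
Mean log2 value of 5 gene lists in each of the 6 arrays, relative to the median of the arrays (vertical axis), with the number of measured genes in brackets. In CTRL 3 the sarcomere stress genes are at −0.11, above CTRL 1 and CTRL 2, while the other mechanical response genes are at −0.83, below them.

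The factors and targets of the main load pathways are described by the same counts. Targets of SRF and its MRTF cofactors were called higher in 13 of 21 (61.9%, beside 14.9% of all genes) and lower in 1 (4.76%, beside 11.8%). Their median log2 change was 0.48. This list is not separate from those above. Of the genes named here, *Cnn1*, *Myl9*, *Acta2*, *Actg2* and *Smtn* are also among the smooth muscle markers, and *Acta2*, *Actg2*, *Actg1* and *Csrp1* among the relatives. *Vcl* is also among the partners and *Egr1* among the mechanical response genes. Further genes of this list that are not named here are shared with those lists as well. *Cnn1* (4.94), *Myl9* (2.78), *Cnn2* (1.37) and *Acta2* (1.08), which encode calponins, a myosin light chain and an actin, had the largest rises. The gene called lower was *Smtn*, the smoothelin of smooth muscle (−0.87, adjusted p = 0.00148), which was named after its value was seen. *Egr1* (0.50, adjusted p = 0.518) and *Actg2* were not called, and *Egr1* was at 1.06 in CTRL 1 and −0.96 and −1.30 in the other CTRL arrays, and was called without CTRL 1 (1.23, adjusted p = 0.00427). Targets of YAP and TEAD were called higher in 8 of 21 (38.1%) and lower in 3 (14.3%). Their median log2 change of −0.06 turned to 0.21 when each gene was represented by its most variable probe set. Beside *Ccn1* and *Ccn2*, *Tgfb2* rose by 1.25 (adjusted p = 0.00765) and *Gadd45a*, a stress gene of growth arrest, fell by 1.26 (adjusted p = 0.000267). *F3* (−0.40, adjusted p = 0.116) and *Nuak2* (0.35, adjusted p = 0.137) were not called, the latter being called without OE 1 (0.51, adjusted p = 0.0415).

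Among 18 upstream regulators 4 were called higher and 3 lower, with a median log2 change of 0.06 (−0.14 with ribosomal centring). These shares were 22.2% higher and 16.7% lower, not far from 14.9% and 11.8% of all genes. *Mef2a* fell by 0.56 (adjusted p = 0.00587) and *Mef2d* by 0.50 (adjusted p = 0.00212). Both are factors of the MEF2 site, matched above in the *Xirp2* promoter and in the shown *Fhl2* entry but not the other, and a link to either gene was not tested. *Nkx2-5*, a homeobox factor of the heart, rose by 0.50 (adjusted p = 0.005), and *Wwtr1*, which encodes the TEAD cofactor TAZ, by 0.42 (adjusted p = 0.0269), a call that only the omission of CTRL 3 left in place (0.0548 to 0.0824 on omitting another array). *Tead2* was at 1.77, 0.55 and −0.14 in OE and was not called (0.82, adjusted p = 0.18, and 1.25 without OE 3, adjusted p = 0.0438), nor was *Hand2* (0.25, adjusted p = 0.15).

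**Figure D4:**
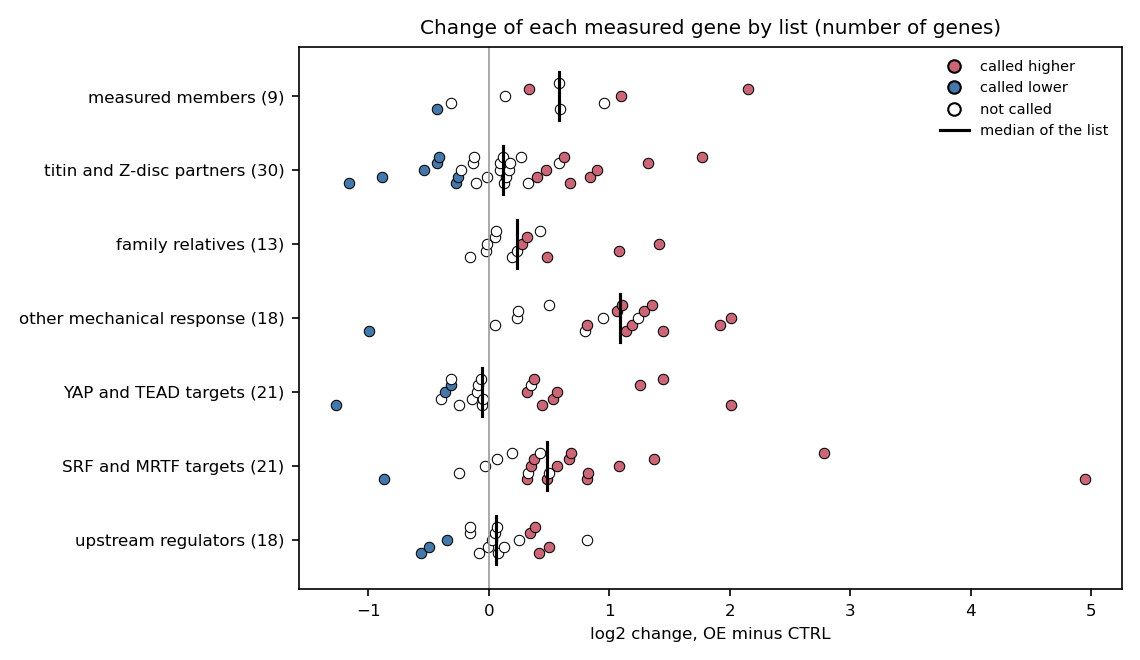
Log2 change from CTRL to OE (horizontal axis) of every measured gene of the sarcomere stress list and of 6 other lists, filled where called, with a bar at the median. The sarcomere stress genes (median 0.58) lie on either side of 0, and the medians of the other lists run from −0.06 to 1.09.

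Markers of the cell types of the ventricle also differed between the groups, where 14.9% of all genes were called higher and 11.8% lower. Of 17 cardiomyocyte markers 10 were called lower and 3 higher, with array means of 0.17 to 0.21 in CTRL and −0.25 to −0.20 in OE. *Hrc* (−1.40) and *Myh6* (−1.30), a calcium-binding protein and the adult myosin heavy chain, had the largest falls. *Myh6* is also the promoter that drives Cre in both groups. Fibroblast markers were called higher in 7 of 12 and lower in 1 (means of −0.56 to −0.17 in CTRL and 0.16 to 0.34 in OE), with *Postn* at 2.66 and *Col3a1* at 1.43. Macrophage markers were called higher in 5 of 11 (−0.36 to −0.11 against 0.01 to 0.37), with *Cd14* at 1.10 and *C1qb* at 0.70. The other 6 were not called, and the lowest log2 change among them was −0.65. Endothelial markers were called lower in 5 of 10 (0.11 to 0.34 against −0.21 to 0.01), with *Flt1* at −0.62 and *Kdr* at −0.63, the latter not called (adjusted p = 0.1). Without CTRL 1 *Kdr* was called (−0.91, adjusted p = 0.0193), and without CTRL 2 *Flt1* was not (adjusted p = 0.05001). *Fhl2* fell and *Ankrd1* and *Csrp3* rose beside these shifts, whose part in the results was not tested.

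By the root mean square difference of values over the 6 arrays, the genes most like *Ankrd1* were *Phldb2* (0.101), *Atp6v0e2* (0.123) and *Armcx1* (0.131). Each had 3 OE arrays above all CTRL arrays, and in each of them CTRL 3 was the highest CTRL array, as in *Ankrd1*. No gene came as near to *Acta1*, for which the closest were *G530011O06Rik* (0.451), *Sertad4* (0.467) and *Pirt* (0.468). In these too CTRL 3 was the highest CTRL array, at 0.27, −0.02 and 0.54. None of the 3 was called with all arrays, and each was without CTRL 3 (log2 changes of 0.86 to 1.34). The genes near *Ankrd1* and *Acta1* were picked by their values in these same arrays. The shared place of CTRL 3 and the like calls therefore follow largely from that choice.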

How the data were processed

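RNA of whole ventricles was hybridized to 6 Affymetrix whole-genome mouse arrays, 3 CTRL and 3 OE, each from a separate mouse. In GeneSpring GX, the authors applied RMA with quantile normalization and a baseline transformation to the median of all samples, and the deposited values, which ran from −4.29 to 3.54, were taken as log2. The base of the logarithm and the version of RMA are not given in the sources used here. Quantile normalization forces like distributions on the arrays, so a shift common to most genes would not be seen. Array medians over genes lay between −0.0091 and 0.0120.

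Of 45101 probe sets, 932 name several symbols, 9211 have no symbol here and 64 are array controls, and these were not used. The 34945 others gave 18193 genes, as the mean of a gene's probe sets. Where a gene ID had no reference entry (162 IDs), the annotation's own symbol stood. OE was set against CTRL by the functions lmFit and eBayes (limma 3.58.1, R 4.3.3), two-sided, without covariates, with Benjamini-Hochberg adjustment over all genes (or all probe sets) and a threshold of 0.05. One-way analysis of variance, the test of the study's methods, was kept as an alternative, since with 3 arrays a group a variance per gene is unsteady. The number of arrays limits the precision. SE is the moderated standard error.

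The members and gene lists were chosen with earlier results of these data known, and the lists were written from textbook knowledge. Some genes of these lists are not reported here. Genes named are all members, from each list up to 4 called and 2 not called genes of largest change, from each marker list the 2 of largest change, *Nr2f2*, and the 3 genes nearest to *Ankrd1* and to *Acta1*. *Actc1* entered as the partner of *Acta1* in 1 of 5 planned pairs, 4 of which could be measured. The alternatives also included array weights, probe sets not ending in _x_at or _s_at, the probe set of largest variance, 2 other centrings, the replicate number as a block, each array left out, and fold limits of 1.2, 1.5 and 2. Promoters came from RefSeq. Scripts used Python 3.11.15, pandas 2.3.3, numpy 2.4.6, scipy 1.17.1 and matplotlib 3.10.9.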

Additional observations from a re-analysis of the deposited data

How the results depend on the processing

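*Uchl1* and *Ankrd1* kept their direction and their call under each of the 13 alternative fits, and *Csrp3* and *Fhl2* kept their direction under each but lost the call under those named with their values. Only the mean of *Fhl1* changed sign, to −0.0689 with ribosomal centring, a setting that moved the median log2 change of all genes from −0.03 to −0.23. That centring also took the median log2 change of the members to 0.38, the relatives to 0.03, the mechanical response genes to 0.88, the SRF targets to 0.28, the YAP targets to −0.26, the partners to −0.08 and the regulators to −0.14. With one-way analysis of variance, ribosomal centring, a 1.5-fold limit and a 2-fold limit, in that order, 1437, 1377, 927 and 298 genes were called higher and 1125, 8757, 479 and 126 lower. Members called lower were 0, 2, 0 and 0. One-way analysis of variance left 4 partners higher and 2 lower, 5 mechanical response genes higher and 0 lower, 1 YAP target, 8 SRF targets and 1 regulator higher. Ribosomal centring gave 11 partners, 3 relatives, 10 YAP targets, 3 SRF targets and 6 regulators lower, and 2 relatives, 4 YAP targets and 1 regulator higher. Over 1.5-fold there were 2 partners lower, 2 relatives higher, 3 YAP targets higher and 1 lower, 8 SRF targets higher, and 0 regulators higher or lower. Over 2-fold there were 2 partners higher and 1 lower, 2 relatives higher, 0 mechanical response genes lower, 3 YAP targets higher and 1 lower, 4 SRF targets higher and 0 lower, and 0 regulators higher or lower. Leaving out 1 array at a time gave 1830 to 2371 genes higher and 1243 to 1731 lower, 2 to 6 members higher and 0 to 1 lower, 2 to 4 partners lower, 3 to 5 relatives higher, 4 to 7 YAP targets higher and 1 to 3 regulators higher. The cause was not tested.

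The replicate numbers were not taken to pair the samples, since deviations of same-numbered arrays correlated at 0.07, −0.12 and 0.03. With the replicate number as a block, 2369 genes were called higher and 1679 lower, and 4 members higher, *Ankrd2* being added (adjusted p = 0.0118). The values hold no signal over background, so limits from dim probes could not be given.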
